A study of Mus musculus with 6 samples.

Results

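Beyond the annotated ends of genes, the deposited isoform table of this mouse spinal cord study holds short assembled transcripts that carry the class code p, the mark that transcript comparison tools give to a possible polymerase run-on beside a known transcript. Every row with that code was taken, which gave 4874 transcripts of 194125 isoforms, or 2.51% of the table. Each carries the name of the gene it lies beside, called its neighbour here, and 4153 gene names occur among them. The code was assigned without use of the injury comparison, so differences between the groups were tested as usual, with the other isoforms of the table in the same fit.

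Spinal cords of C57BL/6 mice (a standard inbred strain), all male and 8 weeks old, were the source of the RNA. The 3 TSCI libraries are from mice that had the vertebral arch opened over T8–10 (laminectomy) and the cord then bruised by a dropped weight, a traumatic spinal cord injury. The 3 sham libraries are from mice that had the laminectomy alone, so anaesthesia and surgery are shared by both groups. The labels speak of 48 mice in sets of 8 without saying whether a set was pooled, and they do not give the time after injury. The p-values thus rest on the spread between these libraries, which may be partly technical. For single isoforms it is the spread shared by isoforms of similar mean level, not each transcript's own.

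RNA polymerase II transcribes past the end of a gene, and the new RNA is cut a short way beyond a polyadenylation signal, most often AAUAAA. Cleavage and polyadenylation factors make that cut, and the exonuclease Xrn2 then degrades the RNA still attached to the polymerase, which helps to release it. RNA found beyond an annotated end is known to come from use of a more distal signal, which lengthens the 3′ untranslated region, or from read-through when cutting or release is delayed, as is described for several kinds of cellular stress.

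All 4874 flanking transcripts had a single exon. Their length ran between 200 and 32493 bases with a median of 311, and 47.7% were 300 bases or shorter. For 4621 of them the table also held at least 1 reference isoform (class code =) of the neighbour, which set the distance between gene and flank. All 4621 lay on the strand of the neighbour and downstream of its nearest reference end, a position that the class code itself requires. The gap between them had a median of 836 bases, with quartiles at 403 and 1367 bases, and 31.1% of the flanks began within 500 bases. In 63 cases the gap to the nearest reference isoform of that name in the table exceeded 2000 bases, and the cause was not tested. Most neighbours had 1 flank (3468 genes), 649 had 2 and 36 had 3. Protein-coding genes were the neighbours of 81.4% of the flanks, lincRNA genes of 2.91%, snoRNA genes of 1.89% and microRNA genes of 1.35% by the GENCODE M21 annotation.

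**Figure D1:**
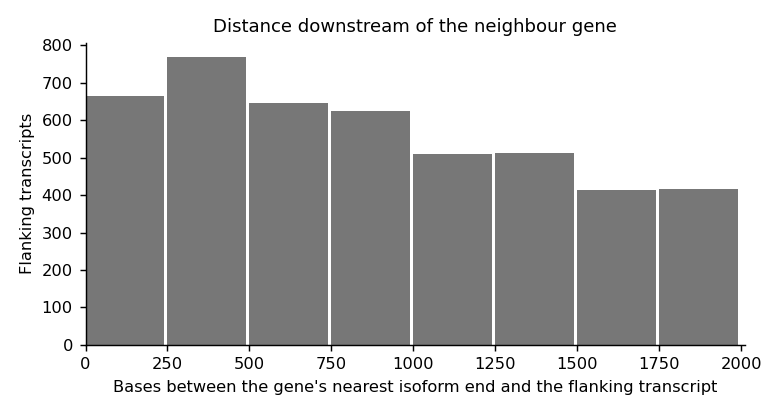
Number of flanking transcripts (vertical axis) by the distance in bases between the end of the neighbour's nearest reference isoform and the start of the flank (horizontal axis, bins of 250 bases up to 2000). The counts decline with distance, with 769 transcripts in the bin that begins at 250 bases and 417 in the last bin.

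The RNA ends that these flanks lie beyond are shown for the neighbours the results turn on, as the last 30 bases of the transcript, 5′ to 3′, read from GENCODE M21 (GRCm38), with the signal AATAAA or its variant ATTAAA in capitals. The first set is 4 genes that rose after injury (Hmox1, chr8:75100560-75100589; Spp1, chr5:104441021-104441050; Serpina3n, chr12:104414300-104414329; Gpnmb, chr6:49070900-49070929; all on the plus strand), and the second 2 genes whose flank begins within 50 bases (Taf15, chr11:83506714-83506743, plus strand; S100a1, chr3:90511034-90511063, minus strand).
Hmox1: tgaaatAATAAAtggcattatctaacagtc
Spp1: tggtgtgAATAAAtcttgtaacgaatgtaa
Serpina3n: gagcaaaagatcAATAAAcatataactgca
Gpnmb: tttgaatttgataaaatatctcccaacatt
Taf15: ctgcAATAAAagctgcttgttttttgtgga
S100a1: gttttAATAAAgccttctctctcaccagct
The first 3 of these ends hold AATAAA 12 to 18 bases before the last base, and the Gpnmb isoform nearest to its flank holds neither form in this window. Taf15 and S100a1 are not the only named genes with so near a flank. The nearest end of Mmp14, whose flank begins 44 bases on, is not printed and holds neither form. Shares were taken over protein-coding transcripts with a complete end whose position is the same in M21. Over the nearest ends of neighbours (2676 ends), 50.3% held AATAAA, 13.6% only ATTAAA and 36.1% neither, on the transcript's own strand. Over the 20771 ends of genes with no flank the shares were 48.5%, 11.4% and 40.1%. The latter set holds all isoform ends of a gene, not a nearest end alone, so the sets differ in kind. Absence of a match says only that these letters are not in the last 30 bases.

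Some flanks are part of the gene in the later annotation. An exon of the neighbour itself in M21 covered part or all of 226 flanks (4.64%), and for 144 (2.95%) the very isoform that the table ends before the flank runs into it in M21, by a median of 2009 further bases. In 34 of those 144 the M21 end lay within 100 bases of the flank's own end. The examples described further below, given as the last 30 bases of the M21 transcript, are Inhba (chr13:16031592-16031621), Lrrc25 (chr8:70621454-70621483), Slfn5 (chr11:82964811-82964840) and Psmc6 (chr14:45349676-45349705), all on the plus strand.
Inhba: agacctgtttgggatgtattttttattttt
Lrrc25: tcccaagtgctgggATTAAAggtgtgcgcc
Slfn5: ttttttaaaaaataaAATAAAggacataag
Psmc6: acttcagtttcataaataccaaaggactaa
Where matches overlap, as at Slfn5, the one nearest the end is in capitals. These M21 ends fall 260 bases (Inhba), 7 bases (Lrrc25), 11 bases (Slfn5) and 52 bases (Psmc6) short of the end of the assembled flank. Flanks over such an exon were longer than the other 4648, with a median of 584 bases against 306 bases. They were above 0 in all 6 libraries in 8.85% of cases, against 1.46% of the other flanks, and above 0 in 1 library only in 28.3%, against 46.0%.

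The libraries differed in how much flanking RNA they held, and the difference did not follow the groups. Flanks above 0 FPKM (fragments scaled to transcript length and library size) numbered 3058, 1282 and 1904 in TSCI replicates 1 to 3, against 1930, 605 and 1249 in sham replicates 1 to 3. They held 1.35%, 0.154% and 0.494% of all FPKM in the TSCI libraries, against 1.05%, 0.292% and 0.232% in the sham libraries. The first library of each group was the highest, both were sequenced in lane 8, and both had more of their bases in intronic isoforms (9.76% and 10.2%) than the other libraries (1.98% to 3.83%). The mean share of FPKM was 0.667% ± 0.619 in TSCI and 0.524% ± 0.455 in sham libraries (SD, n = 3 each), a difference within the spread of either group (two-sided exact permutation p = 0.7, smallest possible 0.1). As a share of aligned bases the means were 0.395% in TSCI and 0.396% in sham libraries (exact permutation p = 1). The part of the lane or of intronic RNA in these levels was not tested.

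**Figure D2:**
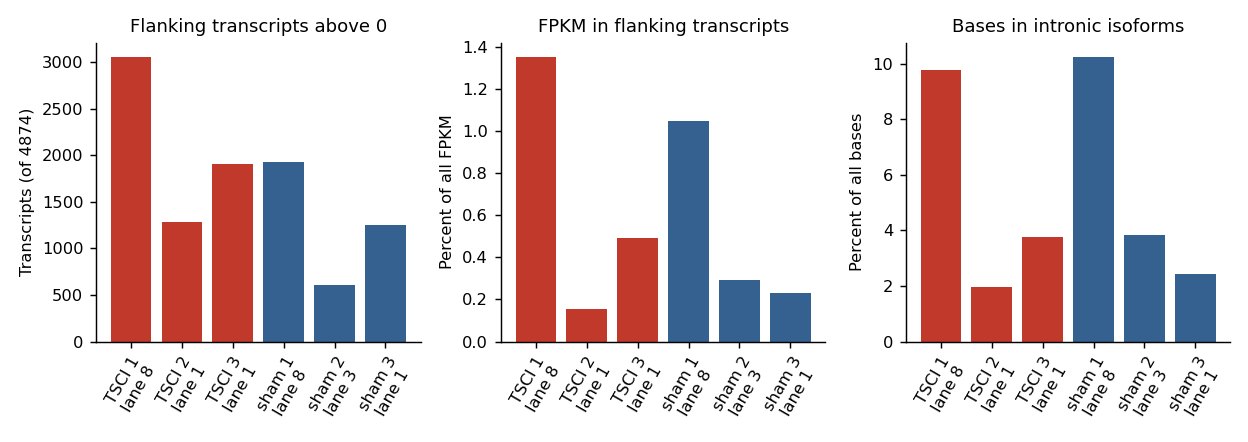
Flanking transcripts above 0, their percent of all FPKM, and the percent of all bases in intronic isoforms in each library (bars, 1 library each, with its sequencing lane; red, TSCI; blue, sham). The 2 lane 8 libraries hold 1.35% and 1.05% of their FPKM in flanks and the other 4 at most 0.494%.

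Depth, computed from the ratio of FPKM to coverage, was 4.46 to 9.16 gigabases of aligned sequence in TSCI and 4.80 to 8.20 gigabases in sham libraries. Of the neighbour genes, 908 were listed at 0 in sham replicate 2 (lane 3), against 208 to 390 in the other 5. Among markers of cord tissue, Snap25 of neurons was at 68.7 to 313 FPKM in TSCI and 124 to 332 FPKM in sham libraries. Isl1 of motor neurons was listed at 0 in sham replicate 2, and Cx3cr1 of microglia was at 0.0293 FPKM in TSCI replicate 3. Hbb-bs of red blood cells was at 2093, 94556 and 25693 FPKM in TSCI, against 830, 24678 and 12180 FPKM in sham libraries. Its part in the shares of FPKM was not tested. Albumin of liver was at most 0.213 FPKM in TSCI and at 0 in sham libraries. Apoa1, also of liver, was at most 0.221 FPKM in TSCI, against 0.0436, 0 and 1.06 FPKM in sham libraries. Arg1 of macrophages was at 43.5 to 156 FPKM in TSCI libraries and listed at 0 in all 3 sham libraries, and Mb of muscle was at 0 to 2.10 FPKM in TSCI and at 0.0920 to 17.8 FPKM in sham libraries. In bulk tissue, fewer cells of a type and less RNA per cell cannot be told apart.

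Detection of single flanks was thin. Of the 4874, 2204 (45.2%) were above 0 in only 1 library, and 88 (1.81%) in all 6. Reference isoforms were above 0 in 1 library in 18.8% of cases and in all 6 in 16.3%, while intronic isoforms were close to the flanks with 47.2% and 1.44%. TSCI replicate 1 alone accounted for 1146 of the flanks seen once, more than the 64 and 345 of the other TSCI libraries and the 448, 51 and 150 of the sham libraries. A ratio of flank to neighbour was taken where both were above 0. The flank then had a median of 35.8%, 10.8% and 16.4% of the neighbour's summed FPKM in the TSCI libraries. In the sham libraries the medians were 26.6%, 37.2% and 25.3%. This leaves out flanks whose neighbour was at 0, 22.4% of those above 0 in sham replicate 2 and 4.93% to 9.57% elsewhere. Counting these, the flank exceeded the neighbour in 19.4% to 29.5% of cases in TSCI and 25.9% to 45.4% in sham libraries. Across the 4621 pairs, the mean level of the flank was barely related to that of its neighbour (Pearson r = 0.02, Spearman rho = 0.03), a description over pairs that share the same 6 libraries.

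No flanking transcript passed the test between TSCI and sham. The test was limma on log2(FPKM + 0.5) over all 89293 isoforms with a mean of at least 0.5 FPKM, at a Benjamini-Hochberg adjusted p of 0.05, and 2373 flanks entered it. The fit took the spread from the trend with mean level alone. The SE and p of a flank therefore do not measure the spread of its own values. Of all isoforms tested, 0.17% were called higher and 0.0381% lower, and the lowest adjusted p of a flank was 0.211. Without sham replicate 1, 2 flanks passed, both lower, those of Mmp14 and Stk32a, in a fit that called 1010 of 85303 isoforms. At an unadjusted p under 0.05, 8 flanks were higher and 18 lower, where 2.86% and 1.14% of all isoforms were. The 3 TSCI values lay wholly above the 3 sham values in 105 tested flanks (4.42%; all isoforms 5.64%) and wholly below in 24 (1.01%; all isoforms 1.46%), shares near those of the table. Only 88 of the tested flanks were above 0 in every library, and 650 had passed the filter on the strength of 1 library, TSCI replicate 1 in 491 of them. The median log2 fold change was 0.54 over tested flanks and 0.44 over all isoforms, and it turned to −0.57 without TSCI replicate 1, to −0.32 without both lane 8 libraries and to −0.15 under quantile normalisation, where all isoforms had −0.26, 0.25 and −0.02. Within lane 8 (1 TSCI and 1 sham library) the median difference of TSCI over sham was 1.51 for tested flanks and 0.23 for all isoforms. Within lane 1 (2 TSCI and 1 sham library) it was 0 for both. An isoform listed at 0 in every library of a lane has a difference of 0 there. A median of 0 therefore does not show that levels were unchanged.

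The flanks of largest difference are described by their values, since none passed. Inhba encodes a subunit of activin, a secreted factor of the TGF-beta family, and its flank (chr13:16028316-16031881, plus strand, 3566 bases) was the highest of these. It was at 6.56, 11.2 and 16.5 FPKM in the TSCI libraries, against 2.24, 0.460 and 1.14 FPKM in the sham libraries. Every TSCI value was above every sham value, with a log2 fold change of 2.78 ± 1.04 (SE, n = 3 each) and a limma adjusted p of 0.608. The reference isoforms of Inhba summed to 12.7, 0.600 and 8.32 FPKM in the TSCI libraries, against 0.0313, 0 and 0 FPKM in the sham libraries. In 5 of 6 libraries the flank was thus higher per length than the gene's reference isoforms, and M21 counts most of this stretch as the end of the Inhba transcript printed above. The difference in change between flank and gene was −0.52 ± 1.36 (SE; adjusted p = 0.977).

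Lrrc25, a leucine-rich repeat membrane protein of myeloid cells, had a flank at 2.73, 5.02 and 2.13 FPKM in the TSCI libraries and listed at 0 in all 3 sham libraries. Its reference isoforms were at 1.86, 2.33 and 3.76 FPKM in TSCI, against 0.174, 1.01 and 0.804 FPKM in sham libraries, so gene and flank both had all TSCI values above all sham values. Lyz2, the lysozyme of macrophages, had a flank at 3.30, 0.684 and 1.77 FPKM in the TSCI libraries and at 0 in all sham libraries. The Lyz2 gene itself was at 324, 2245 and 1753 FPKM in TSCI, against 29.1, 101 and 104 FPKM in sham libraries. The TSCI library with the least Lyz2 had the most flank. Neither flank passed (limma adjusted p = 0.604 for Lrrc25 and 0.793 for Lyz2). The 3 macrophage markers (Arg1, Cd14 and Msr1) were all called higher in TSCI and summed to 77.8, 242 and 224 FPKM in TSCI, against 0.658, 0.805 and 1.34 FPKM in sham libraries; their part in these values was not tested.

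Several other flanks with TSCI values wholly above sham lay beside genes whose own levels overlapped between the groups. Taf15, an RNA-binding protein of the FET family, had a flank 29 bases on at 3.16, 0.972 and 0.947 FPKM in TSCI libraries and at 0 in all sham libraries. Its gene measured 16.8, 9.20 and 13.0 FPKM in TSCI, against 16.3, 8.30 and 3.66 FPKM in sham libraries. The gene values overlapped and the flank values did not. Arid4b, a subunit of a histone deacetylase complex, showed the same layout, with a flank at 1.58, 0.830 and 2.20 FPKM in TSCI libraries and at 0 in sham libraries. S100a1, a calcium-binding protein, had a flank 50 bases on at 4.92, 3.04 and 2.33 FPKM in TSCI, against 0.0828, 0 and 1.75 FPKM in sham libraries. Its gene was at 64.0, 211 and 259 FPKM in TSCI, against 40.8, 723 and 573 FPKM in sham libraries, with overlapping groups.

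The rest of the 10 largest positive differences were beside Tmem164, the lincRNA gene Gm14342, the zinc finger gene Zfp169 and Tbc1d8b. Their flanks ran between 1.26 and 6.93 FPKM in TSCI libraries and between 0 and 1.53 FPKM in sham libraries. Log2 fold changes of the 10 were between 1.95 (Tbc1d8b) and 2.85 (Lrrc25), and 2 of the 10, Inhba and Lrrc25, lay over an exon of their own gene in M21. Over all flanks, 104 (2.13%) were above 0 in every TSCI library and in no sham library, where 1.73% of all isoforms were.

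**Figure D3:**
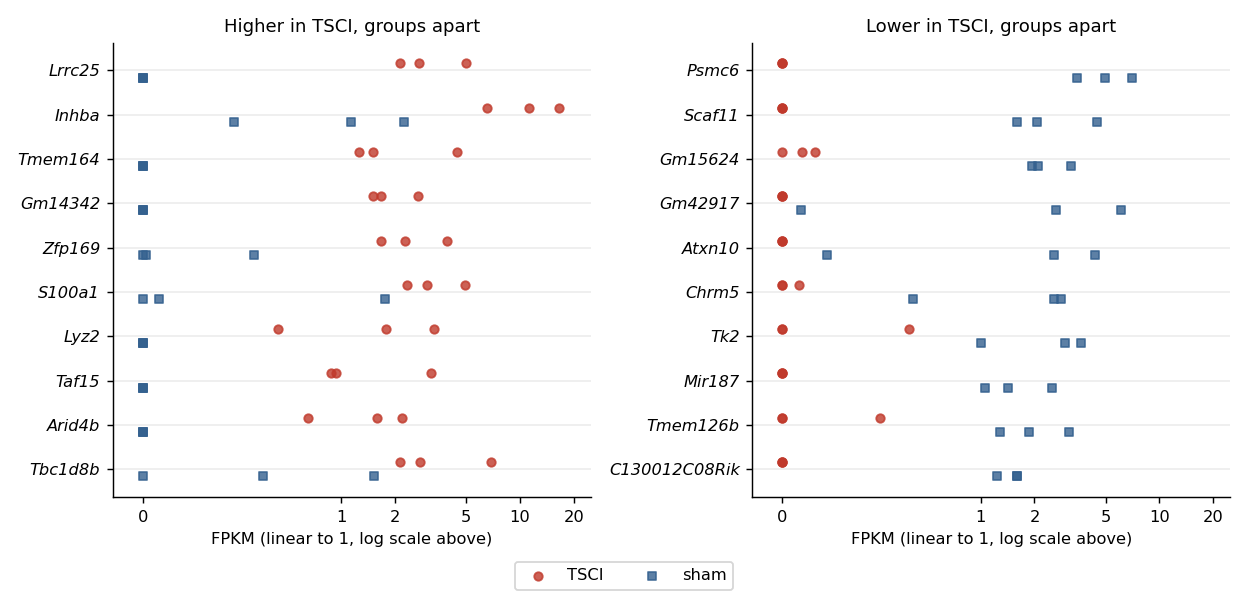
FPKM of the 10 flanking transcripts with the largest positive difference (left) and the 10 with the largest negative one (right) among those whose groups do not overlap, 1 point per library (red circles, TSCI; blue squares, sham), on an axis that is linear up to 1 FPKM and logarithmic above. Psmc6 is at 0 in the 3 TSCI libraries and at 3.46 to 7.01 FPKM in the 3 sham libraries; none of the 20 passed the test.

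The largest negative difference was at Psmc6, an ATPase subunit of the proteasome. Its flank begins 24 bases past the table's end of the gene (chr14:45349096-45349757, plus strand) and was listed at 0 in all 3 TSCI libraries, against 7.01, 4.99 and 3.46 FPKM in the sham libraries. This was the lowest adjusted p of any flank, 0.211 by limma, at a log2 fold change of −3.45 ± 1.05 (SE, n = 3 each). The gene itself had 37.1, 19.5 and 54.1 FPKM in TSCI, against 45.4, 17.5 and 9.57 FPKM in sham libraries, with the groups overlapping. Flank and gene thus differed in layout at Psmc6, where M21 extends the gene over nearly the whole flank; the difference in change was −4.22 ± 1.13 (SE; adjusted p = 0.933).

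Scaf11, a protein of the splicing machinery, had a flank at 0 in all TSCI libraries, against 1.59, 4.46 and 2.07 FPKM in sham libraries. Its gene was at 6.73, 2.03 and 7.68 FPKM in TSCI, against 10.2, 0 and 0 FPKM in sham libraries. In sham replicates 2 and 3 the flank was present while the gene was listed at 0. Tk2, the mitochondrial thymidine kinase, had a flank at 0, 0 and 0.640 FPKM in TSCI, against 3.66, 2.98 and 1.01 FPKM in sham libraries. Tmem126b, which takes part in assembly of respiratory complex I, had a flank at 0.491, 0 and 0 FPKM in TSCI, against 1.87, 3.11 and 1.28 FPKM in sham libraries. Atxn10, Chrm5 (a muscarinic acetylcholine receptor), the microRNA gene Mir187, the antisense genes Gm15624 and Gm42917 and the unclassified C130012C08Rik completed the 10 lowest, at 0 to 0.166 FPKM in TSCI and 0.0962 to 6.08 FPKM in sham libraries. Above 0 in every sham library and in no TSCI library were 12 flanks (0.246%), where 0.124% of all isoforms were.

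By mean level, the highest flank was that of the lincRNA gene 2900097C17Rik (3485 bases), at 46.2, 29.7 and 52.1 FPKM in TSCI, against 146, 21.5 and 23.9 FPKM in sham libraries. Sham replicate 1 was the highest and the groups overlapped (log2 fold change −0.03, adjusted p = 0.998). An M21 transcript of that gene ends 20 bases inside the flank. Of the 10 highest flanks, 4 lay over an exon of their own gene in M21: 2900097C17Rik, Inhba, Klf9 and Aaed1. Several others in the 10 were high in 1 or 2 libraries only. Klf9, a zinc finger transcription factor, had a flank at 24.3 FPKM in sham replicate 2 and listed at 0 in the other 5 libraries. Mmp14, a membrane-bound matrix metalloprotease, had a flank 44 bases on at 0 in all TSCI libraries, against 0, 21.2 and 6.55 FPKM in sham libraries. The Mmp14 gene was at 12.9, 6.45 and 17.0 FPKM in TSCI, against 7.80, 1.80 and 2.26 FPKM in sham libraries, so the libraries with the flank had the least of the gene. Without sham replicate 1 the Mmp14 flank passed (log2 fold change −4.63, limma adjusted p = 0.00441), and with all 6 libraries it did not (−3.09, adjusted p = 0.414). Glra1, the glycine receptor subunit of motor circuits, had a flank of 8706 bases at 15.9, 0 and 7.84 FPKM in TSCI, against 0, 0.0194 and 2.82 FPKM in sham libraries. Fundc1, Arl10, Vash1 and Gm15322 were the remaining ones, with overlapping groups (adjusted p = 0.793 each).

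The change of a flank was then set beside that of its neighbour. Among the 3416 neighbour genes tested as the sum of their reference isoforms, 6 rose in TSCI and none fell at an adjusted p of 0.05 (limma), where 0.264% of all 16283 genes rose and 0% fell. At an unadjusted p under 0.05, 311 neighbours were higher and 26 lower, where 9.62% and 1.35% of all genes were. TSCI values lay wholly above sham for 422 neighbours (12.4%; all genes 13.3%) and wholly below for 91 (2.66%; all genes 2.7%). The 6 were Hmox1 (heme oxygenase), Spp1 (osteopontin), Serpina3n (a protease inhibitor of reactive astrocytes), Gpnmb (a glycoprotein of phagocytes), Tgm1 (a transglutaminase) and Cd14 (a co-receptor for lipopolysaccharide). Without sham replicate 1 the count was 105, and without TSCI replicate 1 or 3 it was 0.

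Hmox1 was at 355, 141 and 413 FPKM in TSCI, against 3.34, 1.72 and 1.02 FPKM in sham libraries, a log2 fold change of 6.87 ± 0.72 (SE, n = 3 each; limma adjusted p = 0.00671). Its flank, 832 bases on, was at 2.79, 0 and 0.980 FPKM in TSCI libraries and at 0 in all sham libraries. Every TSCI value of the gene was above every sham value, and the flank was seen in 2 of the 3 TSCI libraries. Spp1 was at 574, 241 and 809 FPKM in TSCI, against 27.8, 5.98 and 13.1 FPKM in sham libraries, and its flank at 2.85, 2.12 and 0 FPKM in TSCI, against 0.113, 0 and 0 FPKM in sham libraries. Serpina3n was at 274, 135 and 370 FPKM in TSCI, against 15.9, 0 and 0.910 FPKM in sham libraries. One of its flanks was above 0 in TSCI replicate 3 alone (1.39 FPKM) and the other in TSCI replicate 1 alone (3.11 FPKM). The flanks of Gpnmb (2.98 FPKM) and Tgm1 (3.84 FPKM) were each above 0 in TSCI replicate 1 alone, and that of Cd14 (1.45 FPKM) in TSCI replicate 3 alone. The 7 flanks of these 6 genes were therefore at 0 in the sham libraries, other than Spp1 in sham replicate 1, and at no more than 3.84 FPKM in the TSCI libraries.

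**Figure D4:**
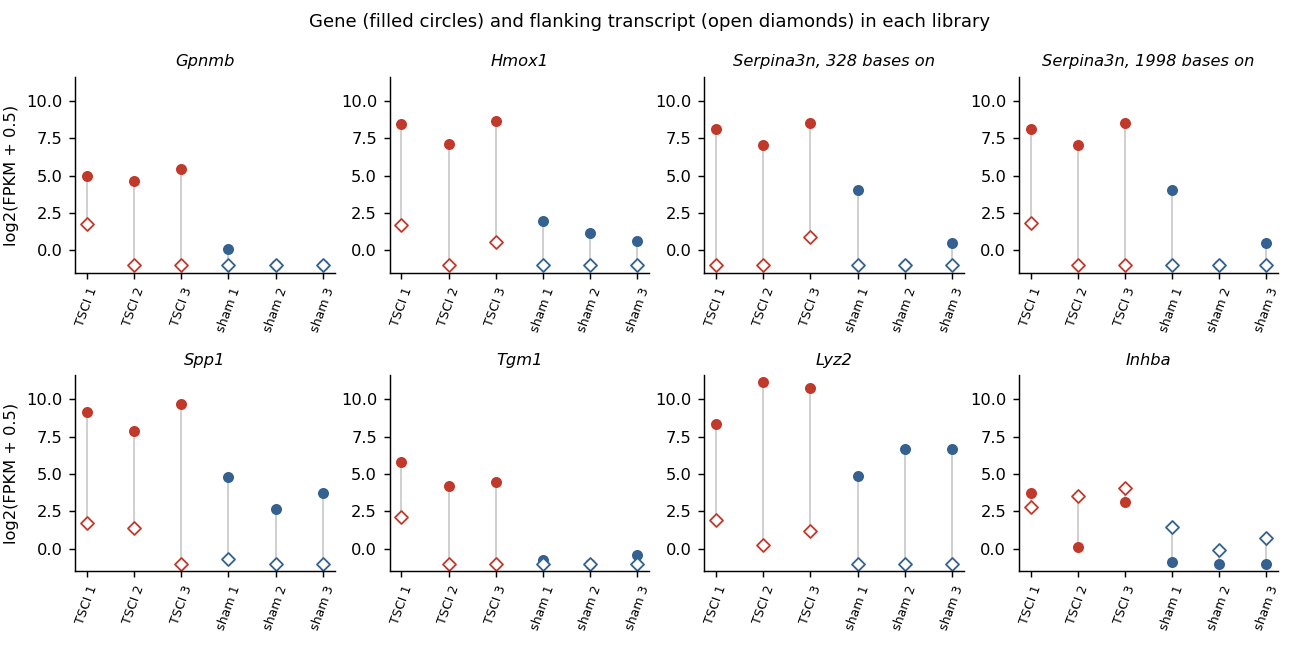
Level of a gene as the sum of its reference isoforms (filled circles) and of its flanking transcript (open diamonds) in each library, as log2(FPKM + 0.5) (red, TSCI; blue, sham), for 5 genes that rose and for Lyz2 and Inhba. In the TSCI libraries the flanks of Hmox1, Spp1, Serpina3n, Gpnmb, Tgm1 and Lyz2 lie far under their gene, at no more than 3.84 FPKM, while that of Inhba is near its gene or above it.

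The difference in change was tested directly as the log2 ratio of flank to neighbour, in one limma fit over 45476 isoform-to-gene ratios. None of the 1978 ratios of flanks passed an adjusted p of 0.05, and 0% of all ratios did in either direction; the lowest adjusted p of a flank was 0.853 (Hmox1, difference −5.44 ± 1.21, SE, n = 3 each). Without sham replicate 1, 5 passed, with Mmp14, Scaf11, Serpina3n and Stk32a lower and Scarna13 higher. Unadjusted, 15 ratios of flanks were higher and 52 lower, where 1.65% and 2.64% of all ratios were. The 3 ratios lay wholly higher in TSCI for 70 flanks (3.54%; all ratios 5.57%) and wholly lower for 110 (5.56%; all ratios 4.65%). The median difference over flanks was −0.09, and 0.14 over all ratios. With a pseudocount of 0.1 the median over flanks was 0.14, so its sign rests on that setting.

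The most negative differences in ratio with no overlap were those of Hmox1, Serpina3n (−5.78), Tgm1 (−4.51), Ldah (−4.60) and Vps26a (−4.29), none of which passed (adjusted p between 0.853 and 0.933). Vps26a, a subunit of the retromer, had a flank at 0 in all TSCI libraries, against 2.32, 0 and 1.92 FPKM in sham libraries. Its gene was at 22.2, 20.4 and 31.2 FPKM in TSCI, against 8.74, 0 and 11.4 FPKM in sham libraries. Gene and flank were both listed at 0 in sham replicate 2. The most positive were those of Ccser1 (3.19), Zfp933 (2.97), AU041133 (2.84), Scn4b (2.76) and Eid2b (2.60), at an adjusted p of 0.933 each. The Eid2b flank was at 1.47, 0.675 and 1.92 FPKM in TSCI, against 2.87, 0.806 and 1.23 FPKM in sham libraries. Its gene was listed at 0 in all TSCI libraries, against 4.54, 0.575 and 6.45 FPKM in sham libraries. The Zfp933 flank was above 0 in TSCI replicate 1 alone (3.69 FPKM). Flanks of Ccser1 (3.13, 0 and 1.02 FPKM in TSCI) and AU041133 (5.01, 0 and 0.916 FPKM in TSCI) were at 0 in all sham libraries. Scn4b, a sodium channel beta subunit, had a flank at 4.58, 0.532 and 0.581 FPKM in TSCI, against 0, 0 and 0.373 FPKM in sham libraries, while the gene had 9.67, 1.28 and 1.85 FPKM in TSCI, against 10.4, 4.28 and 9.23 FPKM in sham libraries. AU041133 and Zfp933 belong to zinc finger families with similar copies, and the part of read placement among copies in these values was not tested.

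The log2 fold change of flanks was higher beside genes with a higher one, but over a much narrower range. Tested flanks were low, with a median mean of 0.70 FPKM for the 1842 outside exons of their own gene in M21. The 0.5 FPKM added before the log understates the fold change of such low transcripts, and its part in the range was not tested. Across the 1978 tested pairs the log2 fold changes of flank and neighbour had a Pearson r of 0.17 and a Spearman rho of 0.17, as a description over pairs from the same libraries. Where the neighbour's log2 fold change was under −1 (103 pairs) the median log2 fold change of the flank was 0.17, and between −1 and 0 (479 pairs) it was 0.22. Between 0 and 1 (870 pairs) it was 0.52, between 1 and 2 (411 pairs) 0.75, between 2 and 3 (87 pairs) 0.94, and at 3 or over (28 pairs) 1.10. Flanks over an exon of their own gene in M21 followed it somewhat more closely (rho = 0.31 over 136 pairs) than the others (rho = 0.15 over 1842 pairs). The 136 also had a higher median mean, 0.97 FPKM, and the part of level and detection in this contrast was not tested. Length moved with the median change as well. It was 0.96 for flanks of 200 to 300 bases, 0.43 up to 1000 bases, 0.16 up to 3000 bases and −0.01 for longer ones, and the part of length and of TSCI replicate 1 in these values was not tested.

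**Figure D5:**
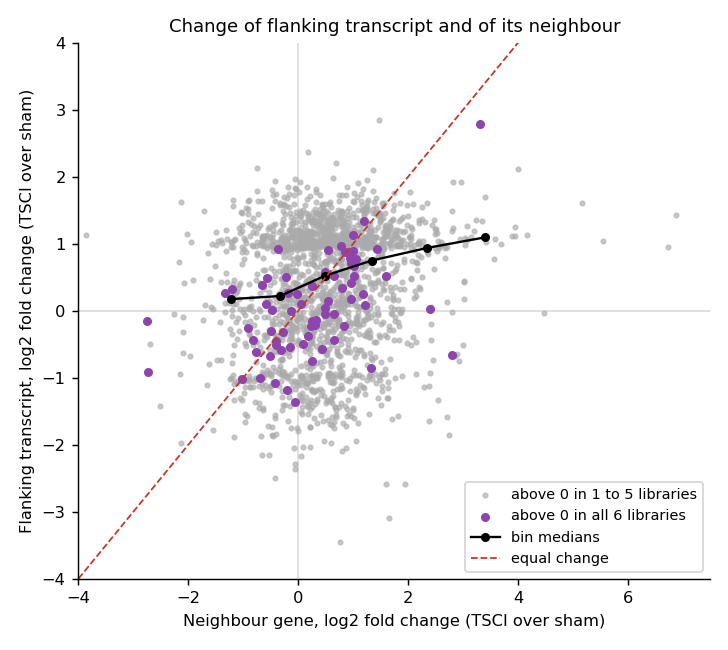
Log2 fold change (TSCI over sham) of a flanking transcript (vertical axis) against that of its neighbour gene (horizontal axis) for 1978 pairs; purple points are flanks above 0 in all 6 libraries, the black line joins the medians of 6 bins, and the dashed line marks equal change. The bin medians of the flank lie between 0.17 and 1.10 while those of the neighbour run between −1.22 and 3.41.

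The 88 flanks above 0 in all 6 libraries were the best measured and were longer, with a median of 2419 bases. Their median log2 fold change was 0.01, and 44 of the 88 were positive. For 78 the table held reference isoforms of the neighbour, with no filter on its level, so some neighbours, as at Syne3, were near 0. Over these pairs the changes of flank and neighbour had a Pearson r of 0.42 and a Spearman rho of 0.40. An exon of their own gene in M21 covered 20 of the 88. The TSCI values were wholly above sham in 6 (Inhba, Syne3, Slfn5, Marveld2, Tll2 and Txnl4a). They were wholly below in 5 (Lancl3, Robo1, Mir196a-1, Pde11a and Tshz2). Of all isoforms tested, 5.64% lay wholly above and 1.46% wholly below. That set includes isoforms at 0 in some libraries, so the 2 sets differ in kind. These flanks are named here after their values were seen. Slfn5, of the interferon-induced Schlafen family, had a flank at 4.20, 3.59 and 4.62 FPKM in TSCI, against 2.03, 2.46 and 0.753 FPKM in sham libraries. Its reference isoforms were at 3.56, 0.992 and 2.06 FPKM in TSCI, against 0.607, 0.807 and 0.828 FPKM in sham libraries, so both separated in the same direction. Syne3, a nesprin that links the nucleus to the cytoskeleton, had a flank at 6.52, 2.62 and 4.38 FPKM in TSCI, against 1.65, 1.18 and 1.67 FPKM in sham libraries, while its reference isoforms were at most 0.0304 FPKM in every library. Robo1, the Slit receptor of axon guidance, had a flank at 1.02, 0.648 and 0.816 FPKM in TSCI, against 1.67, 6.34 and 1.32 FPKM in sham libraries. The Robo1 gene had 6.36, 2.41 and 3.71 FPKM in TSCI, against 11.2, 2.10 and 3.72 FPKM in sham libraries, with overlap.

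Genes of 3′ end cleavage, polyadenylation and termination did not pass the test between groups. Of a list of 42, 39 were tested, and none rose or fell at an adjusted p of 0.05 in limma, with 2 higher and 0 lower at an unadjusted p under 0.05, where 9.62% and 1.35% of all genes were. The log2 fold change was positive in 35 of the 39, and in 69.9% of all genes, with a median of 0.51 over the list and 0.46 over all genes tested. Slbp, which binds the stem-loop of histone mRNAs, was at 9.72, 4.86 and 10.4 FPKM in TSCI, against 3.14, 0.522 and 2.32 FPKM in sham libraries, with no overlap (log2 fold change 1.94 ± 0.72, SE, n = 3 each; adjusted p = 0.354). Cpsf2, a cleavage factor subunit, was at 7.00, 2.98 and 7.57 FPKM in TSCI, against 3.49, 0.735 and 0 FPKM in sham libraries. Cstf1, of the cleavage stimulation factor, was at 3.79, 2.37 and 2.71 FPKM in TSCI, against 0.0616, 0.672 and 1.91 FPKM in sham libraries, without overlap (adjusted p = 0.459). Rprd1b, which binds the polymerase tail, was at 4.30, 23.3 and 7.35 FPKM in TSCI, against 6.12, 192 and 125 FPKM in sham libraries. Without sham replicate 1 it passed as lower (log2 fold change −4.01, limma adjusted p = 0.0253). The exonuclease Xrn2 had 12.2, 7.45 and 14.2 FPKM in TSCI, against 12.2, 11.5 and 2.30 FPKM in sham libraries, with overlap (adjusted p = 0.807).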

How the data were processed

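Isoforms of 6 spinal cord libraries (3 TSCI, 3 sham, ribosomal RNA depleted, stranded kit, per the labels' protocols) were taken from the table of FPKM and coverage (signal) values deposited by the authors. HISAT2, StringTie and TopHat appear, with no version, in the submitters' processing notes; no genome build is named there. Of the Ensembl transcripts in the table, 94.6% have the same position in GENCODE M21, so GRCm38 coordinates are used. The ratio of FPKM to coverage is fixed within each library and sets its aligned bases. Depth per isoform is not known, so no counting intervals are given. The circRNA table was not used.

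Tests were limma 3.58.1 (R 4.3.3, trend) on log2(FPKM + 0.5), TSCI minus sham, mean at least 0.5 FPKM over the 6 libraries, Benjamini-Hochberg over each whole table, threshold 0.05; a fold change on this scale understates that of low transcripts. The fits covered isoforms, genes (summed class = isoforms) and isoform-to-gene ratios. The functions were tested on simulated data. Values are given by library because a 0 in such a table may be a failed estimate. Named flanks were the 10 largest positive and 10 largest negative differences without overlap with a group mean of at least 1 FPKM, the 10 of highest mean, the 5 ratios of largest difference in each direction, members past 0.05, and the 4 genes of the 3′ end list with the lowest p. Members, lists and rules were chosen with earlier results of these data known. Alternatives were other pseudocounts, filters and scalings, the replicate number or lane 8 as a term, each library left out, and another sum for the neighbour. Positions and exons came from M21 with Python 3.11.15.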

Additional observations from a re-analysis of the deposited data

How the results depend on the processing

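No flank passed under any alternative with all 6 libraries, or without both lane 8 libraries. With 1 library left out, the count of flanks past the threshold ran between 0 and 2, of flank-to-neighbour ratios between 0 and 5, of 3′ end genes between 0 and 1 and of neighbour genes between 0 and 105. The highest of each came without sham replicate 1, where Mmp14 passed both as a flank (log2 fold change −4.63, adjusted p = 0.00441) and as a ratio (−6.85, adjusted p = 0.00293), and the ratios of Scaf11 (−6.24, adjusted p = 0.00899) and of the farther Serpina3n flank (−7.21, adjusted p = 0.0217) passed; Stk32a passed in both tests (flank −3.88, ratio −6.03), Scarna13 as a ratio (7.81) and Rprd1b among the 3′ end genes (−4.01). Neighbour genes past the threshold numbered 3 with a pseudocount of 0.1 or median-ratio scaling, 0 with no filter, 24 with lane 8 as a term and 14 without both lane 8 libraries, against 6 as reported, and 0 without TSCI replicate 1 or 3. The median log2 fold change of flanks lay between −0.57 (without TSCI replicate 1) and 0.97 (without TSCI replicate 2), and was 0.02 with a filter at a mean of 1 FPKM. The median flank-minus-neighbour difference was −0.84 without both lane 8 libraries and lay between −0.68 and 0.23 with 1 library left out. The difference in the share of FPKM (0.143 percentage points) turned to −0.000862 as a share of bases, and lay between −0.200 (without TSCI replicate 1) and 0.405, with −0.00288 without sham replicate 3. The cause of these shifts was not tested.

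Replicate numbers are shared by the groups, and same-numbered libraries had correlations of their deviations of 0.05, 0.04 and 0.00. They were therefore not treated as pairs. A replicate block is given here only, with 26 neighbour genes past the threshold and no flank or ratio. Both libraries of replicate 1 were sequenced in lane 8, and the part of a shared batch in these correlations was not tested.

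Single values reversed as follows, none past the threshold. Without both lane 8 libraries, log2 fold changes were −0.62 for the Vash1 flank, 0.78 for 2900097C17Rik and 0.16 for Eid2b, and ratios −2.66 for Glra1 and 0.85 for Inhba. With the neighbour as all isoforms of the name outside class p, ratios were 1.22 for Vash1, 0.88 for Aaed1 and 1.44 for Inhba. With a pseudocount of 0.1 the Lyz2 ratio was 0.090. With 1 library left out, the log2 fold change lay between −0.51 and 0.86 for the 2900097C17Rik flank and between −0.44 and 0.24 for the Eid2b flank. The ratio then lay between −2.44 and 0.96 for Vash1, −1.65 and 0.51 for Inhba, −0.52 and 0.13 for Aaed1, −1.93 and 2.76 for Glra1, and −0.055 and 1.19 for Tbc1d8b. Restricting members to single-exon transcripts or to the neighbour's strand could say nothing of stability, since every flank has a single exon and none with a reference neighbour lies on the other strand. Of the 2373 flanks tested, 650 were above 0 in 1 library only.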

Other observations

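Flanks beside microRNA genes numbered 66, and 4 of them were above 0 in all 6 libraries, those of Mir29a, Mirlet7i, Mir673 and Mir196a-1, named here after their values were seen. MicroRNAs are cut from long primary transcripts, which run well beyond the hairpin that is annotated as the gene. The flank of Mir29a spanned 9176 bases and was at 3.81, 0.757 and 0.528 FPKM in TSCI, against 1.51, 0.601 and 0.132 FPKM in sham libraries. That of Mirlet7i spanned 5763 bases, at 2.48, 0.701 and 1.37 FPKM in TSCI and 1.80, 1.28 and 0.279 FPKM in sham libraries, and both had overlapping groups. The flank of Mir196a-1, a microRNA gene within a Hox cluster, was at 0.781, 0.750 and 0.838 FPKM in TSCI, against 2.15, 2.69 and 1.60 FPKM in sham libraries, with no overlap and a log2 fold change of −1.02 (limma adjusted p = 0.793). Of the 37 tested flanks of microRNA genes, 4 lay wholly higher and 2 wholly lower in TSCI, where 5.64% and 1.46% of all isoforms tested did. Their median log2 fold change was 0.62, against 0.54 for all tested flanks and 0.44 for all isoforms.

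The longest flanks were of kilobase size rather than short tails. That of Xkr6 spanned 32493 bases, at 1.44, 0.935 and 0.402 FPKM in TSCI, against 6.20, 0.269 and 0.564 FPKM in sham libraries. Rbm12b2 had a flank of 15661 bases with no overlap, at 3.02, 0.966 and 2.15 FPKM in TSCI, against 0, 0.231 and 0.423 FPKM in sham libraries, while its reference isoforms were at 0 to 0.219 FPKM in TSCI and at 0 to 1.47 FPKM in sham libraries (flank log2 fold change 1.78, limma adjusted p = 0.793).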
